A study of Mus musculus with 46 samples.

Results

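The 9 genes described here encode the parts of the proteasome that differ between its constitutive and its immune form, and they were taken by name from a table of 48795 mouse genes. They are the 3 constitutive catalytic subunits Psmb5, Psmb6 and Psmb7, the 3 inducible subunits that can replace them, Psmb8, Psmb9 and Psmb10, and the activator subunits Psme1, Psme2 and Psme3. Gene expression had been measured by RNA sequencing in 46 samples of MC-38, a mouse colon carcinoma line of C57BL/6 origin, of which 43 were subcutaneous tumors and 3 were the line in culture. In wild-type (WT) mice, tumors were taken untreated at baseline (n = 3), 4 days into treatment after 1 dose of the PD-1 antibody muDX400 (n = 5) or of an isotype control antibody (n = 5), and 8 days into treatment after 2 doses of muDX400 (n = 5) or isotype (n = 5). muDX400, an antibody against mouse PD-1, was given into the peritoneum at 5 mg/kg. The other experiment compared 10 tumors labelled PD-1cKO with 10 from WT littermates. PD-1cKO mice carried a tamoxifen-inducible Cre driven from the ubiquitous ROSA26 locus and a floxed Pdcd1, and both genotypes received tamoxifen at 40 mg/kg. The labelled time point is 28 days, whereas the methods of the paper name an earlier day for these tumors, and the label is used here. All mice were young adult females. Tamoxifen is thus shared by both arms of the genotype comparison and absent from the antibody comparison.

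The proteasome is the barrel-shaped protease that degrades ubiquitinated proteins, and its proteolysis is done by a few β subunits of the 20S core, with the 19S particle at the ends unfolding the substrate. Interferon-γ induces alternative catalytic subunits that are built into new cores in place of their constitutive partners. Psmb8 (LMP7) takes the place of Psmb5 at the chymotrypsin-like site, Psmb9 (LMP2) that of Psmb6 at the caspase-like site, and Psmb10 (MECL-1) that of Psmb7 at the trypsin-like site. The resulting immunoproteasome yields more peptides with the C-terminal residues that MHC class I molecules prefer, and leukocytes carry it constitutively. Psme1 and Psme2 form the PA28αβ cap, also inducible by interferon-γ, whereas Psme3 forms the nuclear PA28γ cap and is not known as an interferon target. The ratio of an inducible subunit to its constitutive partner therefore compares the message for one form of the enzyme with that for the other inside 1 sample.

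In GRCm38 coordinates, Psmb8 lies at chr17:34197721-34201454 on the plus strand and Psmb9 at chr17:34181987-34187764 on the minus strand, within the MHC and on either side of the peptide transporter gene Tap1. Psmb10 is at chr8:105935735-105938444. The constitutive partners are spread over other chromosomes, with Psmb5 at chr14:54614119-54618022, Psmb6 at chr11:70525367-70527858 and Psmb7 at chr2:38588036-38644087. Psme1, at chr14:55578123-55581529, and Psme2, at chr14:55587441-55591113, are close neighbours, and Psme3 is at chr11:101316213-101323537. Of the 9 genes, 8 had a promoter in the RefSeq table of GRCm38.p6, which gives 250 bases before to 50 after each start. These windows were searched on both strands for 3 written motifs that bear on the contrast between interferon-induced and constitutive subunits. The interferon-stimulated response element GAAANNGAAA occurred in 3.443% of 32851 windows, the gamma-activated site TTCNNNGAA in 8.298%, and the antioxidant response element core TGACNNNGC, bound by NRF factors that can drive proteasome genes, in 12.39%. The 4 matches among the members are shown with the matched letters in capitals and 10 bases on either side, on the strand of the gene.
Psme1: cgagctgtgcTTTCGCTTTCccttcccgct
Psmb8: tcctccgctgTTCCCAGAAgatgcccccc
Psmb6: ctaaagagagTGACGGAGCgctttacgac
Psmb5: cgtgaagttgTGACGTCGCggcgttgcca
Distances are counted from the RefSeq starts of these windows, which can differ from the ends of the gene spans above. The Psme1 match is the interferon-stimulated element on the opposite strand, 9 bases after the start (chr14:55578493-55578522). The Psmb8 match is the gamma-activated letters 97 bases before the start (chr17:34198088-34198116). By the gene spans above, the Psme1 and Psmb8 matches lie inside their genes. Psmb6 and Psmb5 hold the antioxidant core 9 and 47 bases before the start (chr11:70525338-70525366 and chr14:54618024-54618052). The windows of Psmb9, Psmb10, Psme2 and Psme3 held none of these letters, and Psmb7 had no window in the table.

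Psmb7, Psmb9, Psmb10 and Psme3 share no 50-base stretch of transcript with another gene. In Psmb5, 54.07% of such stretches also occur in Gm3375, Mir686 or Psmb5-ps, and in Psme2 28.27% occur in Psme2b or Gm7928, so reads of these 2 genes could be divided by the counting. Psme2b stayed between 0.401 and 12.4 FPKM in the tumors after 2 doses, against 148 FPKM or more for Psme2. In PD-1cKO tumors Psme2b was at 4.57 to 19.7 FPKM and Psme2 at 75.7 to 198. In WT tumors of that experiment they were at 3.31 to 13.9 and 147 to 219. Levels of the genes that share stretches with Psmb5 are not given here. Psmb9 and Tap1 also overlap on opposite strands, and whether strand was used in counting is not given in the sources used here.

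Values are FPKM, fragment numbers scaled to transcript length and to the size of the library, so that genes can be set beside each other within a sample. Their sums still ran from 440865 to 1224460 between samples, so levels are less comparable from sample to sample. Median-of-ratios size factors over the tumors were 0.668 to 1.03 in PD-1cKO and 0.872 to 0.990 in WT. The authors report a range of mapped reads over all samples but not the depth of each, so precision rests on the spread between replicates. The labels do not say that replicates are separate mice, but the paper describes the tumor values as those of individual animals. The p-values measure the spread between these samples only. In the isotype tumor after 1 dose numbered replicate 1, mitochondrial transcripts took 54.6% of all FPKM, its median-of-ratios size factor was 0.429, and results resting on it are given with and without it. Isotype replicate 3 after 2 doses was the highest of its group in 8 of the 9 genes. MC-38 in culture had almost no message for the epithelial markers fixed for a colon carcinoma (summed FPKM 0.616 to 0.742 over 5 genes) and T cell markers summed to 0.160 to 0.337, with 9 of 10 under 0.1 FPKM. Pdcd1 itself was higher in tumors labelled PD-1cKO (5.05 to 19.9 FPKM) than in WT tumors (1.71 to 7.02), and since the gene-level value includes exons outside the deleted part it does not check the label. In tumors, fewer cells of a type and less RNA per cell cannot be told apart. Tumors above or below every control were counted for the members and a few other genes only. No share over all genes stands beside those counts, so they describe the values only.

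The first comparison asked what the tumor adds to the cell line. The identifiers of the culture samples and of the isotype tumors after 2 doses fall in separate ranges. What a range stands for is not given, and it cannot be told apart from group. In culture, MC-38 expressed mainly the constitutive form. Psmb8 was at 39.0, 39.6 and 38.1 FPKM and Psmb10 at 28.4, 32.1 and 30.9, while Psmb9 was barely present at 4.74, 5.07 and 4.22. Against these stood Psmb5 at 128, 126 and 127 FPKM, Psmb6 at 183, 186 and 187, and Psmb7 at 159, 157 and 168. The 3 inducible genes together supplied 13.5% ± 0.49 (SD, n = 3) of the FPKM of the 6 catalytic genes. In isotype-treated tumors after 2 doses they supplied 45.2, 49.6, 48.9, 55.4 and 50.8%. No tumor of any group overlapped with the culture in this share.

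**Figure D1:**
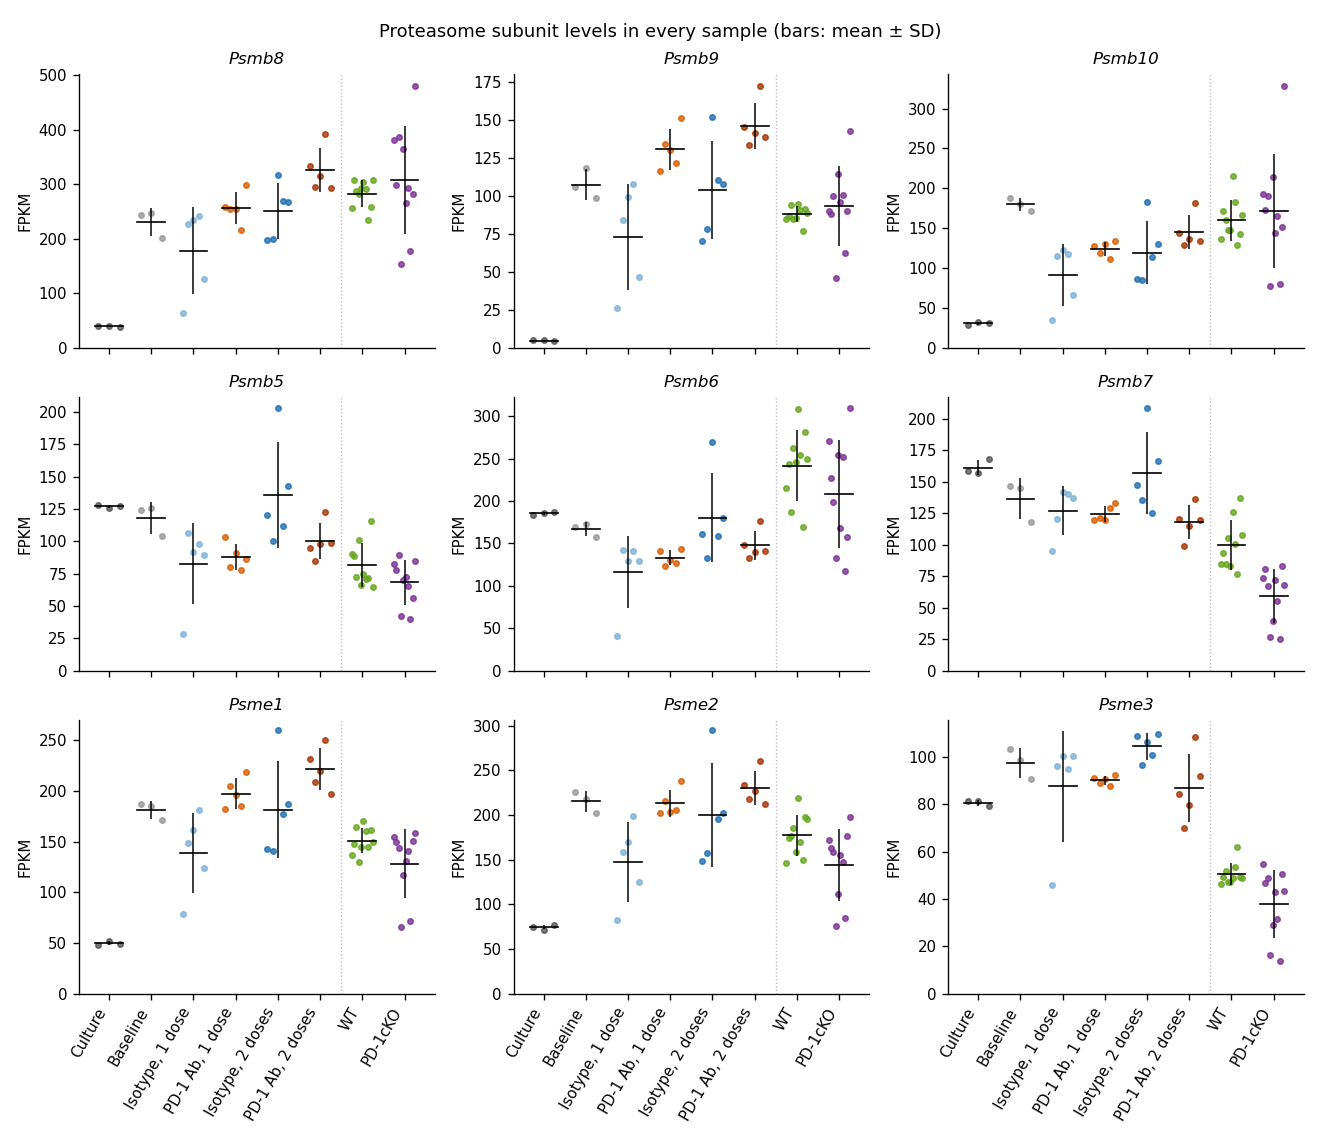
FPKM of the 9 subunits in the 8 groups, with 1 point per sample and a bar at the group mean. Psmb8, Psmb9, Psmb10 and Psme1 sit lowest in the 3 culture samples, Psme2 in culture overlaps with the lowest PD-1cKO tumor, and Psmb5, Psmb6 and Psmb7 in culture lie within or beside the range of the tumors.

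Of the 9 members, 6 were higher in the isotype tumors after 2 doses than in culture and 0 lower, against 20.2% of 15199 genes called higher and 16.8% lower (limma, Benjamini-Hochberg adjusted p under 0.01). Psmb9 rose most, to between 69.9 and 152 FPKM, a log2 difference of 4.39 ± 0.23 (SE) or 20.9-fold. Psmb8 rose by 2.66 ± 0.16 on the log2 scale, to 198 to 318 FPKM, and Psmb10 by 1.91 ± 0.23, to 84.5 to 182 FPKM. Every tumor value of the 3 genes exceeded every culture value. The PA28αβ genes moved with them, Psme1 by 1.83 ± 0.18 and Psme2 by 1.37 ± 0.20. Psme3, of the nuclear cap, rose by only 0.37 ± 0.07 (limma adjusted p = 0.00206), and this call was lost without any one of the culture samples (adjusted p between 0.0124 and 0.0152).

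The constitutive partners did not pass the test. Their log2 differences were 0.05 for Psmb5 (95% confidence interval -0.40 to 0.50), -0.08 for Psmb6 (-0.52 to 0.36) and -0.06 for Psmb7 (-0.41 to 0.28). The catalytic ratios were accordingly separated between culture and tumors. Psmb9/Psmb6 was 0.0259, 0.0273 and 0.0226 in culture and 0.435 to 0.691 in the isotype tumors, 22.2-fold higher. Psmb8/Psmb5 went from 0.300 to 0.315 in culture to 1.57 to 2.41, and Psmb10/Psmb7 from 0.179 to 0.205 to 0.583 to 0.909, which are 6.10-fold and 3.92-fold. All 5 ratios gave an exact permutation p of 0.0357 (2-sided), the smallest that 3 against 5 samples can reach, and 0.0568 after adjustment over the 35 ratio tests of this report. Macrophage markers (8 genes) summed to 2.69 to 3.29 FPKM in culture and 950.0 to 1288 in these tumors, and their part in the levels was not tested.

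**Figure D2:**
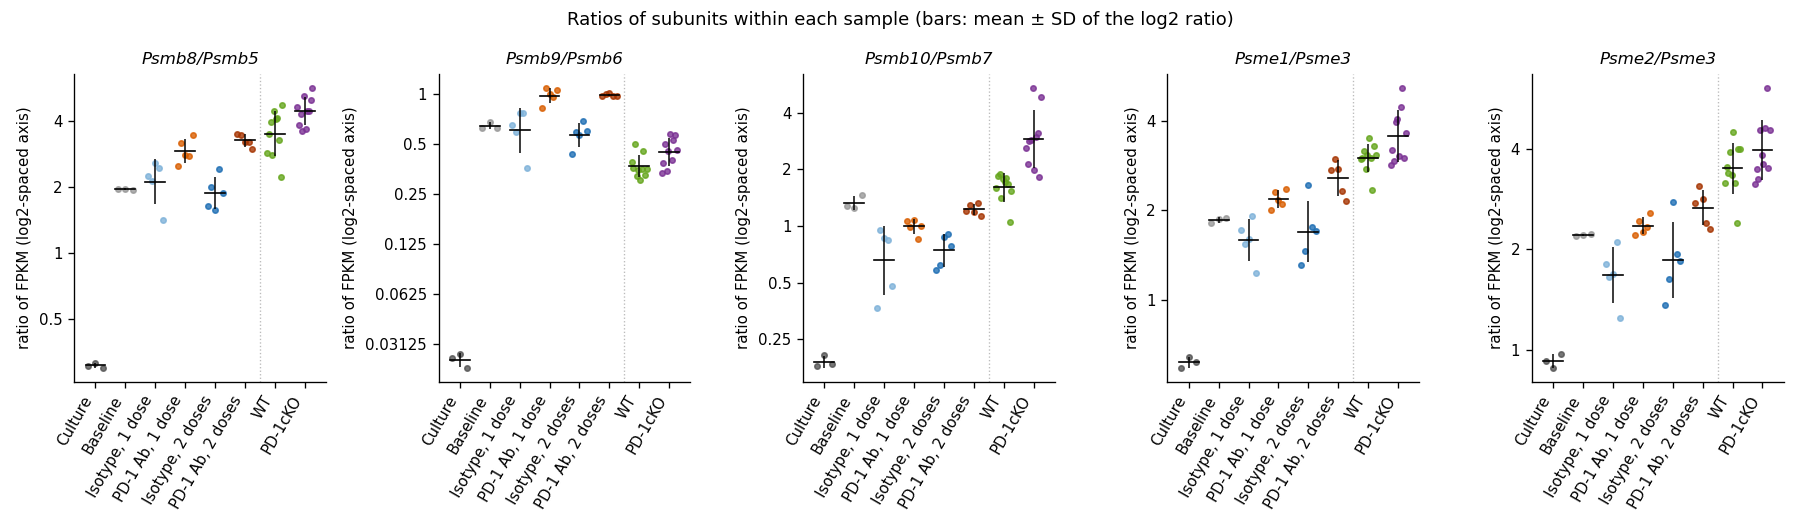
Ratios of inducible to constitutive partner and of Psme1 and Psme2 to Psme3 (log axis) in each sample of the 8 groups, with a bar at the group mean of the log2 ratios. In the antibody experiment the Psmb8/Psmb5, Psmb9/Psmb6 and Psmb10/Psmb7 ratios of the 5 PD-1 antibody tumors after 2 doses lie above all 5 isotype tumors.

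The central comparison was of PD-1 antibody with isotype after 2 doses. No single subunit passed the test here, but the inducible and constitutive members moved apart inside each tumor. Psmb9/Psmb6 was 0.978, 1.01, 1.01, 0.975 and 0.978 in the 5 antibody tumors, that is, equal message for the caspase-site partners in every one, and 0.435, 0.588, 0.563, 0.691 and 0.598 in the isotype tumors. Psmb8/Psmb5 was 3.50, 3.46, 3.21, 3.19 and 2.98 with antibody and 1.64, 1.99, 1.57, 2.41 and 1.88 with isotype. Psmb10/Psmb7 was 1.20, 1.30, 1.19, 1.33 and 1.13 against 0.583, 0.623, 0.875, 0.909 and 0.780. The groups did not overlap in any of the 3 ratios. The log2 differences were 0.80 ± 0.12 (SE) for Psmb8/Psmb5, 0.80 ± 0.11 for Psmb9/Psmb6 and 0.72 ± 0.14 for Psmb10/Psmb7, or 1.74-, 1.74- and 1.65-fold. Each had an exact permutation p of 0.00794, the smallest for 5 against 5, with an adjusted p of 0.0347. The inducible share of catalytic FPKM was 62.8% ± 0.95 (SD, n = 5) with antibody.

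As single genes the members overlapped more. By limma, 0 of the 9 members were called higher and 0 lower, against 6.69% and 1.56% of 15062 genes. An unadjusted p under 0.05 was reached by 5 of the 9 members and by 5977 of the 15062 genes. Psmb9 came nearest among the inducible genes, with 145, 133, 141, 172 and 138 FPKM after antibody and 69.9, 78.2, 152, 110 and 108 after isotype. Its log2 difference of 0.54 ± 0.18 had an adjusted p of 0.0495. Psmb8 was at 333, 294, 315, 392 and 293 FPKM with antibody against 198, 199.8, 318, 269.5 and 268, a difference of 0.39 ± 0.14. In both genes it was isotype replicate 3 that reached into the antibody range. Without that tumor Psmb9 alone was called (log2 0.69, limma adjusted p = 0.00980). Psmb10 differed by 0.33 ± 0.20, Psme1 by 0.32 ± 0.16 and Psme2 by 0.24 ± 0.16, each with overlapping groups.

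The constitutive genes lay on the other side of 0. Psmb7 was at 121, 99.3, 115, 136 and 119 FPKM with antibody and 148, 136, 208, 125 and 167 with isotype, a difference of -0.39 ± 0.14 (limma adjusted p = 0.0567), and 4 of 5 antibody tumors were below every isotype tumor. Psmb5 differed by -0.41 ± 0.17 and Psme3 by -0.28 ± 0.11, also with 4 of 5 below. Psmb6 differed by -0.25 ± 0.17. None of these values passed the threshold.

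**Figure D3:**
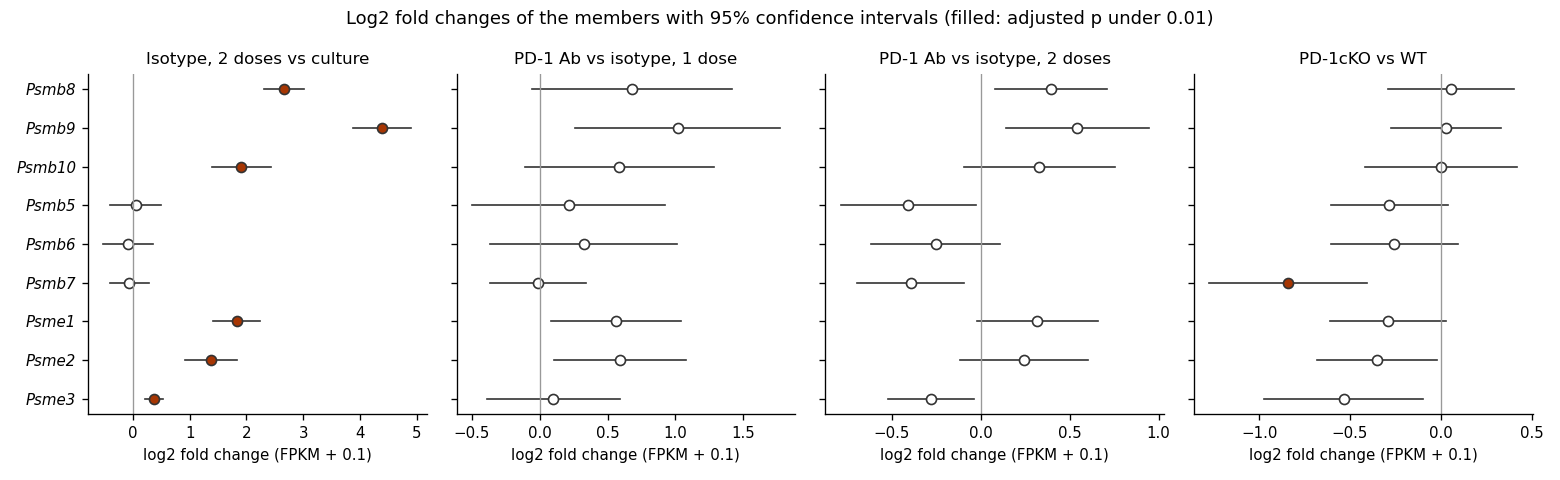
Log2 difference of each member with its 95% confidence interval (limma) in 4 comparisons, in panels whose horizontal axes have different ranges, with filled points where the adjusted p was under 0.01. In the 2-dose antibody panel Psmb8, Psmb9, Psmb10, Psme1 and Psme2 lie to the right of 0 and Psmb5, Psmb6, Psmb7 and Psme3 to the left, while in the PD-1cKO panel only Psmb7 is filled.

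To see whether a ratio owed its shift to the pairing of partners, every other pair of catalytic genes was also compared, together with each gene over the mean log2 level of the other 11 subunits of the 20S core. These 90 tests were added after the data had been seen. After 2 doses the 6 ratios of an inducible gene to a constitutive gene of another pair were all higher, by 0.58 to 0.95 on the log2 scale, with 5 of 5 antibody tumors above every isotype tumor and an exact permutation p of 0.00794 (adjusted over the 90 tests, 0.0286). Between constitutive genes, Psmb5/Psmb6 differed by -0.15 with the same p, while Psmb5/Psmb7 differed by -0.01 and Psmb6/Psmb7 by 0.14 without passing. Between inducible genes, Psmb9/Psmb10 differed by 0.21 (exact permutation p = 0.0159, adjusted 0.0529). Over the other 20S subunits, Psmb8 differed by 0.61, Psmb9 by 0.76 and Psmb10 by 0.55, again with 5 of 5 tumors above every control, whereas Psmb5, Psmb6 and Psmb7 differed by -0.19, -0.04 and -0.18.

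**Figure D4:**
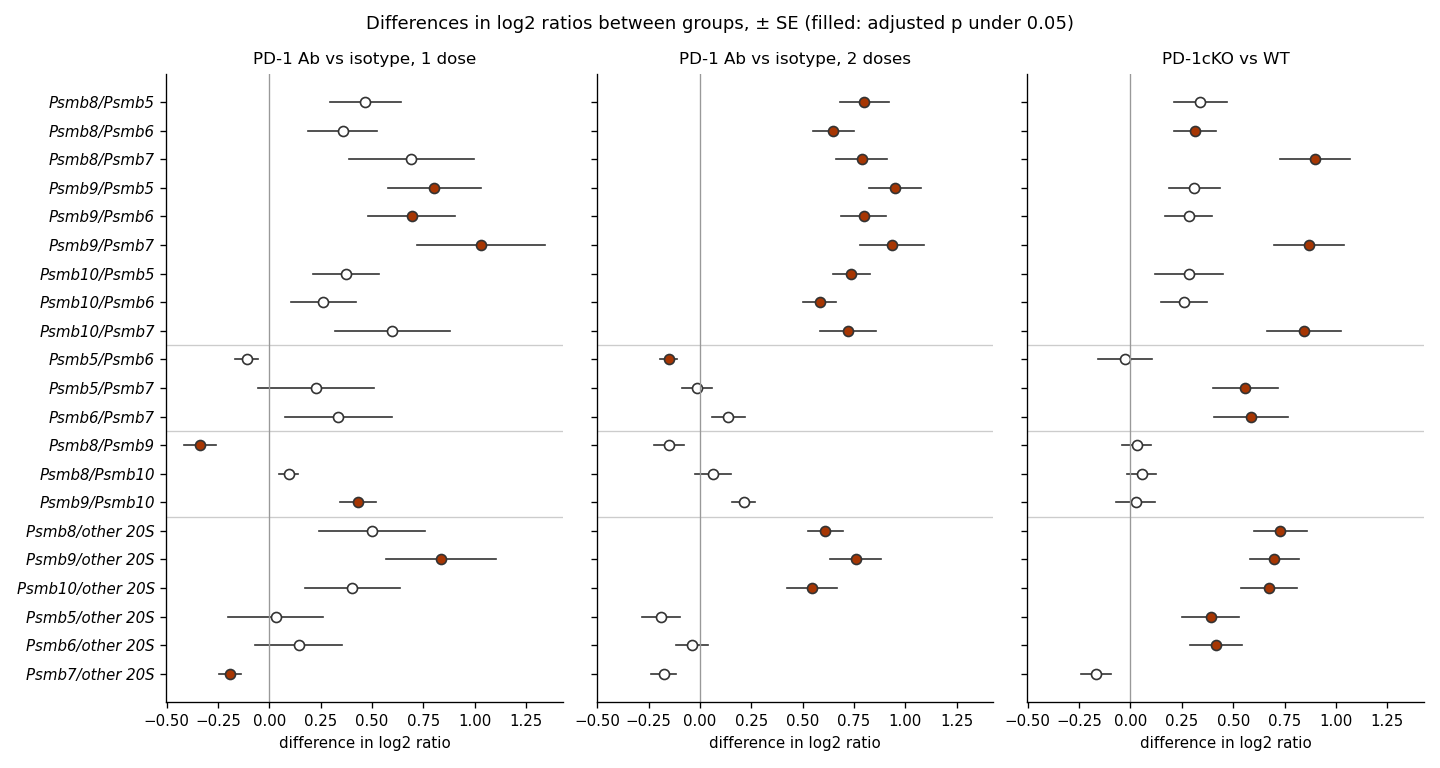
Log2 difference between groups for ratios of catalytic genes (inducible over constitutive, constitutive over constitutive, inducible over inducible, and each gene over the other 20S subunits) in the antibody comparisons and the PD-1cKO comparison. Ratios of an inducible to a constitutive gene lie to the right of 0 in all of these comparisons, as does Psmb6/Psmb7, while Psmb5/Psmb7 does so after 1 dose and in PD-1cKO, and these constitutive pairs passed their test in PD-1cKO only.

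For the PA28 caps, Psme1/Psme3 was 2.74, 2.98, 2.75, 2.32 and 2.15 with antibody against 1.31, 1.46, 2.44, 1.76 and 1.71, and 3 of 5 antibody tumors exceeded every control. The difference was 0.60 ± 0.18 (exact permutation p = 0.0238, adjusted 0.0568). Psme2/Psme3 differed by 0.52 ± 0.19 (exact permutation p = 0.0317, adjusted 0.0568), with 2 of 5 above every control. Without isotype replicate 3 these became 0.73 and 0.67. T cell markers (10 genes) summed to 54.1 to 219 FPKM with antibody and 14.5 to 28.2 with isotype, and macrophage markers to 1566 to 4120 and 950.0 to 1288. The part of these cells in the subunit ratios was not tested.

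After 1 dose the same question was asked earlier in treatment. The ratios were again higher with antibody. Isotype replicate 1 had the lowest Psmb9 level of its group, and isotype replicate 5 the next lowest and the lowest Psmb8/Psmb5 and Psmb9/Psmb6. Psmb9/Psmb6 was 0.820, 1.08, 0.995, 0.961 and 1.05 with antibody and 0.649, 0.589, 0.764, 0.766 and 0.361 with isotype, without overlap. The log2 difference was 0.69 ± 0.21 (exact permutation p = 0.00794, adjusted 0.0347). Psmb8/Psmb5, at 2.49, 3.19, 2.79, 2.77 and 3.47 against 2.23, 2.12, 2.56, 2.45 and 1.42, differed by 0.47 ± 0.17 (exact permutation p = 0.0159, adjusted 0.0556). Psmb10/Psmb7 differed by 0.60 ± 0.28 (exact permutation p = 0.0238, adjusted 0.0568), and its lowest value, 0.365, belonged to isotype replicate 1. In each of these 2 ratios 4 of 5 antibody tumors lay above every control. The cap ratios did not overlap at all, with Psme1/Psme3 at 2.002 to 2.36 against 1.24 to 1.92 and Psme2/Psme3 at 2.22 to 2.58 against 1.25 to 2.10, each with an exact permutation p of 0.00794 (adjusted 0.0347). Without isotype replicate 1 the 5 differences were 0.49, 0.72, 0.39, 0.49 and 0.52, in the order Psmb8, Psmb9, Psmb10, Psme1 and Psme2, with exact permutation p-values of 0.0317, 0.0159, 0.0476, 0.0159 and 0.0159. Psmb10/Psmb7 thus moved from 0.60 to 0.39 when that tumor was left out. Leaving out each of the 10 tumors in turn gave 0.32 to 0.54 for Psmb8/Psmb5 and 0.51 to 0.78 for Psmb9/Psmb6. All 5 ratios kept an exact permutation p under 0.05 each time.

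At the level of single genes after 1 dose, 0 of 9 members were called by limma, against 0% of 14556 genes higher and 0% lower, with 895 genes and 3 members (Psmb9, Psme1 and Psme2) at an unadjusted p under 0.05. Psmb9 was at 116, 134, 130, 122 and 151 FPKM with antibody and 26.2, 83.7, 99.1, 108 and 46.6 with isotype, so every antibody tumor was above every control. The difference was 1.02 ± 0.35 (limma adjusted p = 0.563), and 0.69 without isotype replicate 1. Psme1 (0.56 ± 0.22) and Psme2 (0.59 ± 0.22) were also above every control in 5 of 5 tumors. How many of all tested genes separated in this way was not counted. The median over all genes was 0.26 in this comparison and 0.01 after median-of-ratios scaling, under which Psmb9 stood at 0.76, Psmb5 turned from 0.21 to -0.04 and Psme3 from 0.10 to -0.15. Ratios of members within a tumor are not moved by such scaling. Psmb9 was also higher relative to the other inducible genes here, with Psmb9/Psmb10 higher by 0.43 and Psmb8/Psmb9 lower, at -0.34, both without overlap (exact permutation p = 0.00794, adjusted 0.0286). T cell markers summed to 26.6 to 83.9 FPKM with antibody and 7.21 to 35.3 with isotype.

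The genotype comparison set tumors labelled PD-1cKO against WT. Of the 9 members, 1 was called lower and 0 higher, against 12.6% and 8.78% of 15075 genes. With median-of-ratios scaling 1850 genes were called higher and 1642 lower, in place of 1323 and 1894, and the median over all genes moved from -0.20 to -0.04. The called member was Psmb7, the constitutive trypsin-site subunit, which ranged from 25.3 to 83.5 FPKM (median 67.5) in PD-1cKO and from 76.4 to 137 (median 97.1) in WT. In 8 of 10 PD-1cKO tumors it was below every WT tumor. The log2 difference was -0.84 ± 0.21 (limma adjusted p = 0.00469), and -0.68 (adjusted p = 0.0063) after median-of-ratios scaling. Leaving out PD-1cKO replicate 5 or WT replicate 6 took the adjusted p to 0.0102 and 0.01003.

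The inducible genes did not separate the genotypes. Psmb8 had a median of 296 FPKM in PD-1cKO (153 to 481) and 290 in WT (235 to 308), and differed by 0.06 ± 0.17 (95% confidence interval -0.29 to 0.40). In FPKM as deposited, without size factors, the PD-1cKO tumors were spread on both sides, 4 above every WT tumor and 2 below. Psmb9 differed by 0.03 (-0.28 to 0.33) and Psmb10 by 0.00 (-0.41 to 0.42). Psmb5 differed by -0.28 ± 0.15, Psmb6 by -0.26 ± 0.17, Psme1 by -0.29 ± 0.15 and Psme2 by -0.35 ± 0.16, none called. Psme3 ranged from 13.8 to 54.6 FPKM against 46.3 to 62.0, with 6 of 10 below every WT tumor, and its difference of -0.53 ± 0.21 (limma adjusted p = 0.0447) also missed the threshold.

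As ratios, Psmb10/Psmb7 stood apart. It was 1.82 to 5.45 (median 2.86) in PD-1cKO and 1.04 to 1.90 (median 1.69) in WT, with 9 of 10 PD-1cKO tumors above every WT tumor. The log2 difference was 0.84 ± 0.18 (permutation p = 4e-05, adjusted 0.0014). Psmb8/Psmb5 was 3.61 to 5.68 against 2.23 to 4.75 and differed by 0.34 ± 0.13 (permutation p = 0.0148, adjusted 0.0556), and Psmb9/Psmb6 differed by 0.28 ± 0.11 (permutation p = 0.0243, adjusted 0.0568). Psme1/Psme3 differed by 0.24 ± 0.10 (permutation p = 0.0287, adjusted 0.0568) and Psme2/Psme3 by 0.19 ± 0.12 (p = 0.154). The inducible share was 62.5% ± 3.1 (SD, n = 10) in PD-1cKO and 55.7% ± 3.6 in WT, and 6 of 10 PD-1cKO tumors were above every WT tumor.

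The other pairs of catalytic genes were compared in the same way. Constitutive genes over Psmb7 were also higher in PD-1cKO, Psmb5/Psmb7 by 0.56 (permutation p = 0.00296, adjusted 0.0286) and Psmb6/Psmb7 by 0.59 (p = 0.00516, adjusted 0.0286), whereas Psmb5/Psmb6 differed by -0.03. Ratios among the inducible genes differed by 0.02 to 0.05 and none passed. Of the other 11 core subunits 5 were called lower and 6 were not called. Over the mean of the 11, Psmb8, Psmb9 and Psmb10 were higher by 0.73, 0.70 and 0.68, in 10 of 10 PD-1cKO tumors above every WT tumor. These 3 had a permutation p of 2e-05, the smallest that 100000 permutations can give (adjusted 0.0006). Psmb5 and Psmb6 were also higher over the other core subunits, by 0.39 and 0.42 (permutation p = 0.0126 and 0.00456, adjusted 0.0437 and 0.0286). Psmb7 lay on the other side at -0.17 (p = 0.0357, adjusted 0.0631).

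The samples of this experiment fall into 3 runs of consecutive identifiers, of which the first holds 7 PD-1cKO tumors and no WT tumor, the second 1 and 9, and the third 2 and 1. What a run stands for is not given, and genotype and run can only partly be told apart. In the second run Psmb10/Psmb7 was 3.14 in the PD-1cKO tumor and 1.04 to 1.90 in the WT tumors, and in the third 1.82 and 4.84 against 1.54. Psmb8/Psmb5 was 4.44 against 2.23 to 4.42 in the second run and 4.98 and 5.68 against 4.75 in the third. Psme1/Psme3 was 5.17 against 2.34 to 3.50 in the second run, and 2.99 and 3.64 against 3.06 in the third. Since the first run holds no WT tumor, differences with run as a covariate rest on the other runs. In the second run they rest on PD-1cKO replicate 8 alone. With run as a covariate, added after the data had been seen, the differences were 0.95 for Psmb10/Psmb7 (permutation p = 0.00997), 0.52 for Psmb9/Psmb6 (p = 0.00544), 0.49 for Psme1/Psme3 (p = 0.0187) and 0.29 for Psmb8/Psmb5, which no longer passed (p = 0.155). In the same fit across all genes 0 were called, with 6533 at an unadjusted p under 0.05, Psmb7 was at -1.33 (limma adjusted p = 0.0257), and Psmb8, Psmb9 and Psmb10 turned to -0.26, -0.13 and -0.38. T cell markers summed to 39.8 to 182 FPKM in PD-1cKO and 16.1 to 57.2 in WT, macrophage markers to 1447 to 4898 and 863 to 1563, with 5 of 8 called higher, and fibroblast markers (5 genes) to 1368 to 7020 and 599.8 to 1334. Their part in these values was not tested.

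The responses to 2 doses of antibody and to the genotype were compared directly as a difference of differences. The Psmb9/Psmb6 response was larger with antibody by 0.51 ± 0.16 on the log2 scale (permutation p = 0.00633, adjusted 0.0347), and that of Psmb8/Psmb5 by 0.46 ± 0.17 (permutation p = 0.0252, adjusted 0.0568). Psmb10/Psmb7 did not differ by more than its error, at -0.12 ± 0.23 (p = 0.656). Run was not a term in these ratio contrasts. With it, the PD-1cKO difference alone had been larger for Psmb9/Psmb6 and Psmb10/Psmb7 and smaller for Psmb8/Psmb5. Whether the contrasts between responses hold with run was not tested. As single genes, 0 of 9 members differed between the responses, against 0.0853% of 16404 genes higher and 0.0122% lower (limma). An unadjusted p under 0.05 was reached by Psmb9, Psme1 and Psme2 and by 2585 of the 16404 genes. Between 2 doses and 1 dose none of the 5 ratio responses passed, the largest being Psmb8/Psmb5 at 0.33 ± 0.21 (permutation p = 0.109), and 0 of 9 members differed, against 0% of 15289 genes higher and 0% lower with 1182 genes at an unadjusted p under 0.05 and none of the members. The 2-dose antibody tumors and their isotype controls enter both of these contrasts, and the isotype tumors also enter the comparisons with culture and baseline.

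Baseline tumors, taken before treatment, were compared with the isotype tumors after 2 doses. Their identifiers also fall in separate ranges, so group and range cannot be told apart. Here 0 of 9 members were called, against 0.448% of 14967 genes higher and 0.18% lower. An unadjusted p under 0.05 was reached by 2647 of the 14967 genes and by 1 member. This was Psmb10, at 188, 179.9 and 172 FPKM at baseline against 84.5 to 182, a difference of 0.65 ± 0.23 (limma adjusted p = 0.179). Psmb10/Psmb7 was 1.28, 1.24 and 1.46 at baseline and 0.583 to 0.909 after isotype, without overlap (log2 0.83 ± 0.15, exact permutation p = 0.0357, the smallest possible, adjusted 0.0568). Psmb10 was also higher over Psmb5 (0.81), Psmb6 (0.73) and the other 20S subunits (0.68), and Psmb8/Psmb10 was lower at -0.75, all with the same exact permutation p. Psmb8/Psmb5 (1.94 to 1.97) and Psmb9/Psmb6 (0.623 to 0.681) at baseline fell inside the isotype range.

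Over all 8 groups the order of the ratios differed by pair. For Psmb9/Psmb6 the group means ran from 0.0252 in culture through 0.371 in WT, 0.454 in PD-1cKO, 0.575 and 0.626 in isotype after 2 doses and 1 dose and 0.643 at baseline to 0.983 and 0.989 in the antibody tumors after 1 and 2 doses. Neighbours overlapped except at the steps from culture to WT and from baseline to antibody. For Psmb8/Psmb5 the means ran from 0.307 in culture to 4.48 in PD-1cKO, with WT (3.59) above the antibody tumors after 2 doses (3.27), and only the step out of culture was free of overlap. The WT and isotype tumors come from separate experiments with different time points and treatments, so no test was made across them.

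The remaining genes of the pathway were taken from fixed lists. The 11 other 20S subunits, structural α and β chains of the core, had 0 called and a median log2 difference of -0.24 with 2 doses of antibody, where the median of all tested genes was -0.04. In the genotype comparison, with an overall median of -0.20, 5 of 11 were lower, among them Psma6 (-1.22 ± 0.24), Psma1 (-0.96 ± 0.19) and Psma4 (-0.77 ± 0.17), with a list median of -0.69. Against culture, with an overall median of -0.11, 0 of 11 were called, at a median of -0.07. The 18 subunits of the 19S particle were 0 called with antibody (median -0.27), 6 lower in PD-1cKO (median -0.60), led by the base subunit Psmd1 (-1.08 ± 0.27), the lid subunit Psmd12 (-1.07 ± 0.25) and the deubiquitinase Psmd14 (-0.98 ± 0.24), and 7 lower in tumors than in culture. Among 11 assembly factors and further regulators, the chaperone Psmg1 was lower with antibody (-0.69 ± 0.15, limma adjusted p = 0.0087). In PD-1cKO 4 of the 11 were lower, among them Psme4, Psmd10 and Psmg2.

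Peptide loading and MHC class I genes (12 tested) had 3 higher with 2 doses of antibody, namely the class I transactivator Nlrc5 (1.28 ± 0.17), the loading editor Tapbpl (0.85 ± 0.13) and the transporter subunit Tap1 (0.83 ± 0.16). Tap1, the neighbour of Psmb8 and Psmb9, was at 184, 188, 194, 219 and 189 FPKM against 78.2, 90.7, 141, 138 and 115. In PD-1cKO 1 of the 12 was higher, H2-D1 (0.53 ± 0.14), and 2 were lower, the trimming peptidase Erap1 (-0.91 ± 0.19) and the chaperone Canx (-0.85 ± 0.21). Against culture 8 were higher and 1 lower, with Tap1 at 3.74 ± 0.19 and H2-K1 at 3.17 ± 0.17. Of 11 interferon-γ signaling genes, 7 were higher with 2 doses of antibody, including Ifng (2.52 ± 0.34) and Irf1 (0.62 ± 0.11). In PD-1cKO 2 were higher, Ifng (1.02 ± 0.27) and Irf8 (1.06 ± 0.14), while Irf1 stood at 0.05 without a call. In culture Ifng was listed at 0 in all 3 samples, and 9 of the 11 genes were higher in tumors. Leaving out single tumors took the limma adjusted p to between 0.00691 and 0.0267 for Psmg1 and to between 0.00366 and 0.0153 for Tap1 with antibody, and to between 0.00118 and 0.0135 for Ifng in PD-1cKO, so each of these 3 calls was lost when some of the tumors were left out one at a time. Calls were also lost in PD-1cKO for H2-D1 without any of 5 of the 20 tumors (limma adjusted p up to 0.0129), for Psmg2 without any of 3 (up to 0.0112) and for Canx without 1 (0.01002), and with 2 doses of antibody for Irf1 without 1 of the 10 (0.0129). None of these lists had a called gene after 1 dose, at baseline or in the differences between responses.

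Across the 43 tumors, after median-of-ratios scaling and with group means removed, the 3 inducible members lay close together. The correlations did not, however, split the 9 members into their classes. Psmb8 went with Psmb10 (Pearson r = 0.95) and Psmb9 (r = 0.91), and Psme1 with Psme2 (r = 0.93), whereas Psmb9 and Psme3 were at 0.31. Constitutive Psmb7 was closer to Psme2 (r = 0.80) and Psme1 (r = 0.75) than to Psmb5 (r = 0.46) or Psmb6 (r = 0.44). Psmb6 was at 0.82 with inducible Psmb10 and at 0.77 with both Psmb8 and Psmb5. Among the 13228 genes averaging 1 FPKM or more, members aside, the closest to Psmb8 was Tap1 (r = 0.92). The closest to Psmb9 was the class Ib gene H2-T22 (r = 0.93). Psmb10 was closest to Ogfr (r = 0.91). The constitutive genes had other companions, the respiratory chain gene Ndufb8 for Psmb6 (r = 0.97), the ribosomal protein gene Rpl9 for Psmb7 (r = 0.96) and the mitochondrial import gene Samm50 for Psmb5 (r = 0.92). Psme3 was closest to Pa2g4 (r = 0.95). Psme1 and Psme2 were closest to core subunits, Psmb2 (r = 0.87) and Psma5 (r = 0.86). Genes of a point share its library, depth and size factor, and isotype replicate 1 after 1 dose is among the points, so these values are a description only.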

How the data were processed

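RNA from 46 samples had been sequenced from ribosomal RNA-depleted, stranded total RNA libraries. Reads were aligned by the authors with OSA in Array Studio to mouse GRCm38 with an Ensembl gene model. The deposited values are FPKM per gene, with no counts, so the counting depth of each sample is unknown. The members and gene lists were chosen with earlier results of these data known. Identifiers were matched to symbols for 99.09% of genes. Groups followed the labels. Log2(FPKM + 0.1) was fitted with limma 3.58.1 (R 4.3.3, trended eBayes) on the samples of each comparison, over genes averaging 0.5 FPKM or more in any of its groups, and called at a Benjamini-Hochberg adjusted p under 0.01. Fold changes on this scale understate those of low genes. Ratios were taken on the same scale and compared by 2-sided permutation tests (scipy 1.17.1), exact between 2 groups where either held under 10 samples, and with 100000 permutations for PD-1cKO against WT, for differences between responses and with run as a covariate, with 35 tests in the family and p under 0.05 as the threshold. Named genes were all members, up to 3 called genes per list by size, and the genes closest in pattern. The fit was tested on simulated data. Alternatives were the pseudocount, the filter, 2 scalings, 1 fit of all groups, the replicate number as a block, runs of identifiers and each sample left out. No 2 samples were identical. In the labels the same replicate numbers recur between groups, but correlations of same-numbered deviations were -0.26 to 0.19, so the numbers do not pair samples.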

Additional observations from a re-analysis of the deposited data

Results flagged for a closer look

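Of 84 groups of 4 to 10 samples tested for a single distant value, 5 had one, and chance gives about 5% of groups. In the isotype tumor after 1 dose numbered replicate 1, Psmb5 (28.2 FPKM), Psmb6 (40.4 FPKM) and Psme3 (46.0 FPKM) lay far below the other 4 tumors of the group, in the same library in which mitochondrial transcripts took 54.6% of FPKM. Whether the low values come from that share was not tested. Psme3 was at 62.0 FPKM in WT replicate 8, far above the other 9 WT tumors, and Psme2/Psme3 was 6.12 in PD-1cKO replicate 8, far above the other 9 of its group.

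The responses of Psmb8/Psmb5 and Psmb9/Psmb6 were larger to 2 doses of antibody than to the PD-1cKO genotype, by 0.46 and 0.51 on the log2 scale (permutation p = 0.0252 and 0.00633, adjusted 0.0568 and 0.0347). The contrasts also differ in time point and in tamoxifen, which cannot be told apart from the difference. Genotype is moreover only partly separable from run, and run was not a term in these tests.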

How the results depend on the processing

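Limits: the depth of each sample is unknown, group sizes set a floor on permutation p-values, and the ratios assume that each pair is counted alike. Every reversal of sign among the genes and ratios named in the text is given here. With 1 dose of antibody, Psmb5 was -0.042 and -0.062 and Psme3 -0.15 and -0.17 under median-of-ratios and upper-quartile scaling. In PD-1cKO against WT, runs as a covariate gave -0.26 for Psmb8, -0.13 for Psmb9, -0.38 for Psmb10 and -0.35 for Irf1, with 0 members called, as also without a filter. In the added covariate fits of the ratios Psmb8/Psmb5 was 0.29 and no longer passed, and Psme2/Psme3 was 0.47 and passed. In the second run Psme2/Psme3 was 6.12 in PD-1cKO replicate 8 against 2.41 to 4.50 in WT. In the third it was 3.50 and 4.55 against 4.02. Psmb7 against culture was 0.011 with median-of-ratios scaling. Psme1 at baseline was -0.018 and -0.019 under the 2 scalings, and with the replicate block Ifng was 0.051, Irf1 0.017 and Ptprc 0.085. For the 2-dose antibody response minus the PD-1cKO response, Psmb5 was 0.15 with runs, Psmb6 -0.21 and -0.27 under the scalings, and Psme3 -0.013 with upper quartile. As shares in percentage points, the same contrast gave 0.218 for Psmb10/Psmb7, 6.20 for Psme1/Psme3 and 5.77 for Psme2/Psme3, and 4 rather than 2 ratios passed. For 2 doses minus 1 dose, median-of-ratios scaling gave 0.020 for Psmb10, 0.033 for Psme1 and 0.15 for Irf1, which was 0.080 with upper quartile. The cause was not tested in any of these. The replicate block and 1 fit of all groups each took the members called against culture from 6 to 5 (Psme3 lost, limma adjusted p = 0.0625 and 0.334), and the block changed no other member call. The block took the calls over all genes with 2 doses of antibody from 1008 higher and 235 lower to 318 and 24.

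Leaving out 1 sample at a time moved the members called with 2 doses of antibody between 0 and 1 and in PD-1cKO between 0 and 1. Psme2/Psme3 with 2 doses ranged from 0.41 to 0.67 and Psme1/Psme3 in PD-1cKO from 0.18 to 0.28, on both sides of the threshold. Against culture, where no exact test can pass with a sample left out (smallest p 0.0571 for 3 against 4 and 0.0952 for 2 against 5), 0 to 0 ratios passed, at 2.52 to 2.67 for Psmb8/Psmb5, 4.39 to 4.57 for Psmb9/Psmb6, 1.90 to 2.06 for Psmb10/Psmb7, 1.32 to 1.55 for Psme1/Psme3 and 0.86 to 1.115 for Psme2/Psme3. At baseline likewise 0 to 0 passed, with Psmb10/Psmb7 at 0.75 to 0.91 and Psmb8/Psmb5 at -0.0015 to 0.15. For antibody minus PD-1cKO 1 to 4 ratios passed, with Psmb8/Psmb5 at 0.40 to 0.55, Psme1/Psme3 at 0.26 to 0.48 and Psme2/Psme3 at 0.23 to 0.48. For 2 doses minus 1 dose 0 to 1 passed, with Psmb8/Psmb5 at 0.26 to 0.48, Psmb10/Psmb7 at -0.011 to 0.34 and Psme2/Psme3 at -0.082 to 0.17. Among single genes that changed sign, with 1 dose Psmb5 ranged from -0.14 to 0.34, Psmb6 from -0.026 to 0.43, Psmb7 from -0.11 to 0.031 and Psme3 from -0.12 to 0.16. In PD-1cKO Psmb8 ranged from -0.022 to 0.16, Psmb9 from -0.047 to 0.13, Psmb10 from -0.11 to 0.12 and Irf1 from -0.013 to 0.16. Against culture Psmb5 ranged from -0.11 to 0.15, Psmb6 from -0.24 to 0.018 and Psmb7 from -0.17 to 0.012. At baseline Psmb9 ranged from -0.027 to 0.25, Psmb6 from -0.17 to 0.081, Psme1 from -0.050 to 0.17, Ifng from -0.58 to 0.49, Irf1 from -0.15 to 0.019, Ptprc from -0.35 to 0.34 and Cd8a from -1.11 to 0.21. For antibody minus PD-1cKO Psmb5 ranged from -0.22 to 0.034 and Psmb6 from -0.10 to 0.16, and for 2 doses minus 1 dose Psmb8 from -0.43 to 0.050, Psmb10 from -0.40 to 0.057, Ifng from -0.27 to 0.53 and Irf1 from -0.27 to 0.19.

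Over all genes with 2 doses of antibody, the calls were 512 higher and 66 lower without a filter, and the 235 lower calls became 21 in 1 fit of all groups, 117 without a trend and 146 with median-of-ratios scaling. In PD-1cKO the 1323 higher and 1894 lower became 980 and 913 without a filter, 810 and 1073 with the block and 0 with runs, with 3038 lower in 1 fit of all groups. Against culture 3068 and 2553 became 2099 and 1219 in 1 fit of all groups and 1990 and 743 with the block. At baseline the other settings ran from 0 with the block to 135 and 42 with a pseudocount of 1, beside 67 and 27, and for antibody minus PD-1cKO from 0 with 1 fit of all groups to 39 and 4 with a pseudocount of 1, beside 14 and 2. With 1 dose 10 genes were called in 1 fit of all groups, and for 2 doses minus 1 dose 1 gene without a filter, beside 0. Leaving out 1 sample gave 396 to 1932 higher and 25 to 639 lower with 2 doses (1932 and 639 without antibody replicate 5), 946 to 1602 and 986 to 3322 in PD-1cKO (3322 lower without PD-1cKO replicate 9), 2391 to 3501 and 1172 to 3594 against culture, 10 to 169 and 1 to 62 at baseline (the most without isotype replicate 3), and 2 to 58 and 0 to 3 for antibody minus PD-1cKO. With 1 dose it gave 13 higher and 1 lower without isotype replicate 1.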

Other observations

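Within the 10 PD-1cKO and the 10 WT tumors, the 3 catalytic ratios were set against Ifng and against Ptprc, the pan-leukocyte gene CD45, in 12 relations. None passed after adjustment. The strongest was Psmb9/Psmb6 with Ifng in WT tumors (Pearson r = 0.78, permutation p = 0.0108, adjusted 0.130, Spearman rho = 0.37, permutation p = 0.296), and r was 0.38 without the 2 tumors farthest from the median of Ifng, so the relation rests on those tumors.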
